A study of Caenorhabditis elegans with 8 samples.

Results

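The lys genes of Caenorhabditis elegans encode lysozymes, and 8 of the 9 genes listed under lys-1 to lys-8 and lys-10 had a row in the deposited table of 14541 genes. Members were taken by name alone from this list. The annotation names 10 lys genes, and any outside the list was not looked up. lys-10 (WBGene00003099, a gene with 1 exon on chromosome IV, 8332826 to 8333518) had no row and was not analysed here. The table holds 8 RNA sequencing libraries of whole animals, 4 experimental replicates of the wild-type strain N2 and 4 of strain ERT994, which carries the pals-17(syb3980) allele, called pals-17(*). This allele puts premature stop codons into pals-17, and the normal pals-17 product holds back the Intracellular Pathogen Response (IPR), the transcriptional program that nematodes raise against viruses and microsporidia of the gut. Wild-type animals were grown on OP50-1 bacteria from the L1 larval stage for 48 h at 20 °C, and mutants, which develop slowly, for 72 h at 20 °C. Each mutant library pooled animals of an average stage of L4 with some older and some younger ones, so genotype, growth time and the mix of stages cannot be told apart in these libraries. The labels give no tissue other than the whole animal.

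Lysozymes cut the peptidoglycan of bacterial cell walls. For a nematode that eats bacteria they serve both digestion and defence, and much of their expression is in the intestine, whose cells secrete them into the gut lumen. The lys genes encode lysozymes of the protist type, whereas a separate family, ilys, encodes lysozymes of the invertebrate type. Several lys genes are known to respond to bacterial infection, and the DAF-16 (insulin), PMK-1 (p38 MAPK) and DBL-1 (TGF-beta) pathways are known to control some of them.

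Recovered reads per library numbered 17871320 to 23378799 in the wild type and 18629170 to 21891721 in the mutant. Levels are given in CPM, counts relative to the library size as scaled by the authors, and a single read was worth 0.0522 to 0.0681 CPM in wild-type libraries and 0.0362 to 0.0446 CPM in mutant libraries. Transcripts of pals-17 itself were lower in each mutant library (4.07 to 4.6 CPM) than in each wild-type library (14.3 to 19.3 CPM). The strains differ over most of the table: of all genes, 41.2% passed the test (adjusted p-value under 0.05) as lower in mutants and 42.5% as higher.

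Lysozyme transcripts were lower in pals-17(*) mutants for 7 of the 8 lys genes, and none was higher. The median log2 difference of the 8 genes, mutants minus wild type, was -2.46, beside 0.0041 over all genes tested. The decreases covered a wide range, from -0.75 for lys-7 to -3.79 for lys-4, while the value of lys-3 was -0.01. For 4 of the 8 genes (lys-2, lys-4, lys-5 and lys-6) the difference went beyond -2, which 7.48% of all genes did. For 6 of the 8 genes the strains did not overlap at all, with mutants below, as for 39% of all genes. P-values come from limma, run on the log2 values as deposited, and are adjusted over all 14541 genes. With each library scaled to its total of reads, the median over all genes became 0.60, the split over all genes moved from 5994 lower and 6180 higher to 3390 lower and 8742 higher, and lys-7 no longer passed the threshold (-0.16, adjusted p = 0.53).

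**Figure D1:**
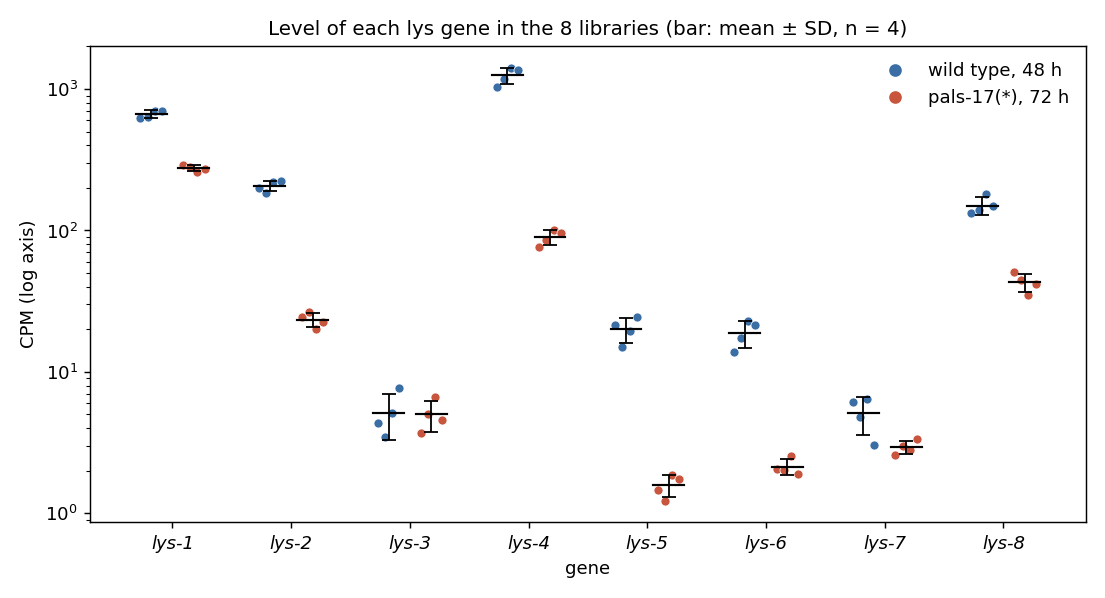
Level of each lys gene in CPM (log axis) in 4 wild-type libraries (blue) and 4 pals-17(*) libraries (red), with the mean and SD of each strain in black. For lys-1, lys-2, lys-4, lys-5, lys-6 and lys-8 the strains do not overlap, with lys-4 between 1041 and 1414 CPM in wild-type animals and between 76.9 and 100.4 CPM in mutants.

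The 3 genes lys-4, lys-5 and lys-6 lie side by side on chromosome IV, all on the reverse strand, within 6519 bp (11621429 to 11627947, WBcel235), and all 3 were strongly lower in mutants. lys-4 (WBGene00003093, 11621429 to 11623174, 2 exons) was the most abundant lysozyme of the wild type, with 1041, 1180, 1414 and 1358 CPM in replicates 1 to 4. In the mutant libraries it stood at 76.9, 85.5, 100.4 and 96.5 CPM. All mutant libraries lay far below all wild-type libraries, and the spread within each strain was small beside the gap. This gave 1248 ± 170.4 CPM against 89.8 ± 10.7 CPM (SD, n = 4 each), 13.9 times lower, with a log2 difference of -3.79 (SE 0.115, adjusted p = 2.52e-09).

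lys-5 (WBGene00003094, 11624252 to 11625582, 2 exons) was expressed at a much lower level than its neighbour lys-4. Wild-type replicates 1 to 4 had 21.3, 15.04, 19.3 and 24.5 CPM, against mutant replicates with 1.47, 1.23, 1.86 and 1.76 CPM (33 to 50 reads each). The strains did not overlap, and the log2 difference was -3.64 (SE 0.183, adjusted p = 4.69e-08). lys-6 (WBGene00003095, 11626910 to 11627947, 2 exons) was close to lys-5 in level. Its wild-type libraries held 13.8, 17.2, 22.9 and 21.5 CPM and its mutant libraries 2.05, 2.03, 2.54 and 1.91 CPM (46 to 68 reads each). Again no mutant library reached the wild-type range, with a log2 difference of -3.12 (SE 0.173, adjusted p = 8.85e-08). The 3 genes thus fell by 8.68 to 13.9 times. The ratio of lys-5 to lys-4 within a library was -5.97 ± 0.325 on the log2 scale in wild-type animals and -5.82 ± 0.187 in mutants (SD, n = 4 each), with overlapping libraries. For lys-6 over lys-4 the ratio went from -6.06 ± 0.129 to -5.38 ± 0.186, and each mutant library was above each wild-type library. With quantile normalization both ratios were lower in mutants without overlap, by -1.25 for lys-5 and -0.58 for lys-6. These ratios within the cluster were chosen after the values were seen and were not tested.

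A second cluster on chromosome V (10277904 to 10283544, 5641 bp) holds lys-1, lys-2 and lys-3, and here the 3 genes differed widely. lys-1 (WBGene00003090, 10277904 to 10279056, forward strand, 2 exons), a lysozyme known to be expressed in the intestine and induced by Serratia marcescens, had 622, 635, 695 and 704 CPM in wild-type replicates 1 to 4. The mutant replicates had 292, 281, 258 and 273 CPM. The replicates of each strain were close together, and the strains were clearly apart. The log2 difference was -1.27 (SE 0.0656, adjusted p = 5.6e-08), a level 2.4 times lower. It shrank to -0.67 under scaling by library totals and to -0.40 under quantile normalization, and passed the threshold under both.

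lys-2 (WBGene00003091, 10280307 to 10281474, reverse strand, 2 exons) lies 1250 bp from lys-1. Its levels were 201, 185, 222 and 222 CPM in the wild type and 24.5, 26.4, 20.3 and 22.4 CPM in mutants. The lowest wild-type library was several times above the highest mutant library. The log2 difference of -3.15 (SE 0.095, adjusted p = 2.52e-09) is a level 8.88 times lower.

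lys-3 (WBGene00003092, 10282100 to 10283544, reverse strand, 3 exons) lies 625 bp from lys-2, and was the only lys gene analysed here that did not pass the test. It was weakly expressed, with 4.32, 3.45, 5.1 and 7.7 CPM (66 to 113 reads) in wild-type libraries and 3.7, 5.07, 6.64 and 4.59 CPM (83 to 178 reads) in mutant libraries. The strains overlapped over nearly the whole range. The log2 difference was -0.01 (SE 0.256, adjusted p = 0.967), with a 95% interval of -0.59 to 0.56. Its value depended on the scaling, at 0.58 with library totals (adjusted p = 0.0577) and -0.79 with quantile normalization (adjusted p = 0.0104), where lys-1 was at -0.40. The log2 ratio of lys-3 to its neighbour lys-2 within a library went from -5.39 ± 0.382 in wild-type animals to -2.25 ± 0.467 in mutants (SD, n = 4 each; chosen after the values were seen, not tested). That is a change of 3.14, and of 2.11 with quantile normalization.

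**Figure D2:**
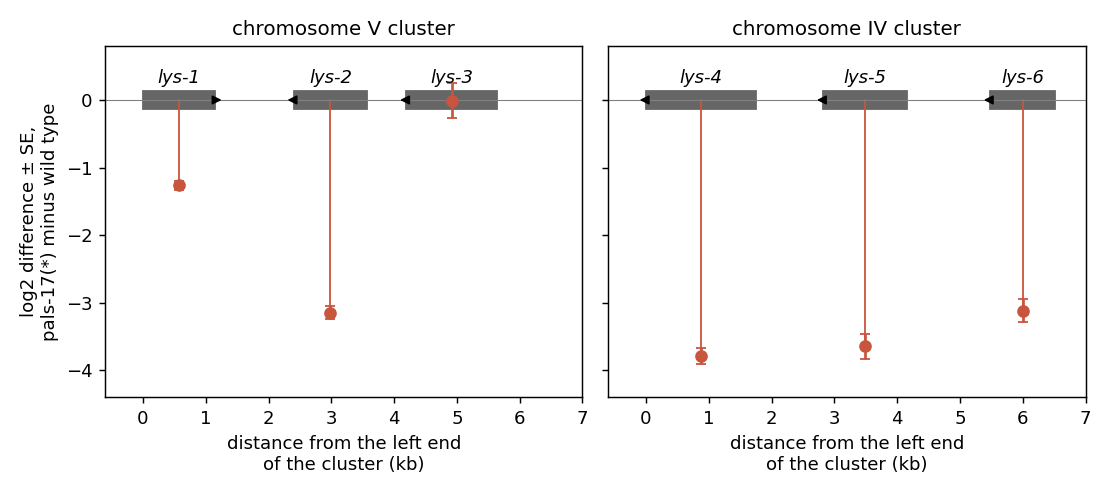
Log2 difference (pals-17(*) minus wild type, ± SE) of the lys genes of both clusters, drawn at the middle of each gene; grey boxes are the genes to scale in kb from the left end of the cluster, and arrowheads give the strand. The chromosome IV genes sit together between -3.79 and -3.12, whereas the chromosome V genes run from -3.15 (lys-2) to -0.01 (lys-3).

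The remaining pair, lys-7 and lys-8, stand alone in the genome and are known targets of DAF-16. lys-8 (WBGene00003097, chromosome II, 5586178 to 5587651, forward strand, 3 exons) was well expressed, with wild-type replicates at 132, 139, 180.5 and 148 CPM and mutant replicates at 50.5, 44.7, 35.1 and 41.5 CPM. The strains did not overlap. The log2 difference was -1.81 (SE 0.125, adjusted p = 4.12e-07), or 3.5 times lower. It overlaps C17G10.13 on the other strand by 38 bp. C17G10.13 was higher in mutants (3.2 against 20.3 CPM, log2 difference 2.67, adjusted p = 1.66e-07), and the use of strand in counting is not given in the sources used here. lys-7 (WBGene00003096, chromosome V, 3481432 to 3482600, reverse strand, 3 exons), which like lys-1 is known to be induced by Serratia marcescens, was low in these animals. Wild-type libraries held 6.14, 4.81, 6.46 and 3.07 CPM (45 to 100 reads) and mutant libraries 2.59, 3.00, 2.80 and 3.33 CPM (58 to 87 reads). Wild-type replicate 4 lay inside the mutant range, and the other 3 wild-type libraries lay above it. The log2 difference was -0.75 (SE 0.228, 95% interval -1.27 to -0.24, adjusted p = 0.011). Without wild-type replicate 4 it was -0.98, and with quantile normalization -1.63.

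**Figure D3:**
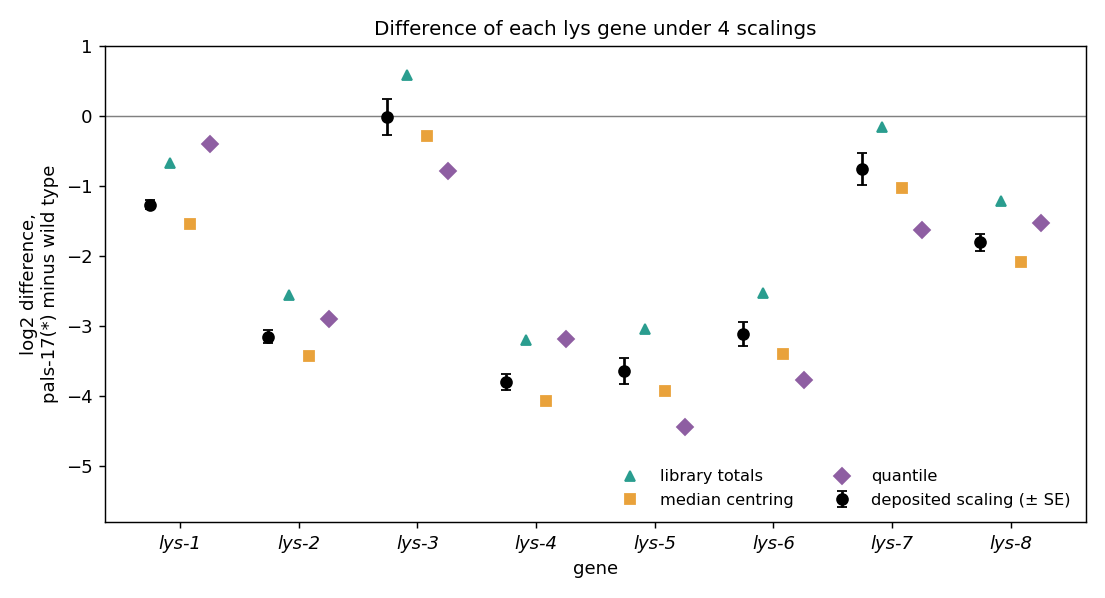
Log2 difference of each lys gene under the deposited scaling (black, ± SE), library totals (green), median centring (orange) and quantile normalization (purple). Every gene but lys-3 lies below 0 under all 4 scalings, and lys-7 nears 0 with library totals (-0.16).

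Summed over the 8 genes, lysozyme transcripts came to 2319 ± 249 CPM for the wild type against 444 ± 11.7 CPM for the mutant (SD, n = 4 each). Single libraries of the wild type ranged from 2041 to 2565 CPM and those of the mutant from 427 to 454 CPM, so the sum was more even among the mutant libraries. The make-up of the sum changed with the level. lys-4 gave 51 to 55.1% of it in the wild type but 16.9 to 23.5% in mutants, while lys-1 went from 27.1 to 30.5% up to 60.3 to 64.4%. The share of lys-8 was 5.96 to 7.04% and 8.22 to 11.1%, and that of lys-2 was 8.5 to 9.83% and 4.74 to 5.87%. lys-3, lys-5, lys-6 and lys-7 each made up at most 1.55% of any library's sum.

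**Figure D4:**
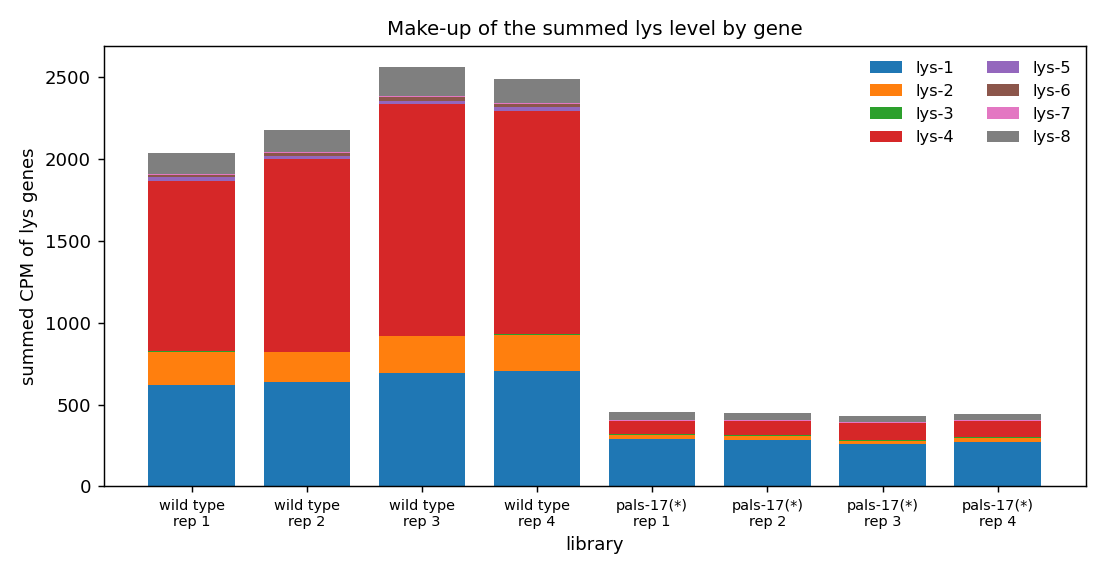
Summed CPM of the 8 lys genes in each library, stacked by gene. The 4 wild-type bars reach 2041 to 2565 CPM and are mostly lys-4 (red), whereas the 4 mutant bars reach 427 to 454 CPM and are mostly lys-1 (blue).

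Levels of different genes were compared per kb of exon. In wild-type animals the order was lys-4 (1584 ± 216 CPM per kb), lys-1 (692 ± 43.3), lys-2 (223 ± 19.2), lys-8 (155 ± 22), lys-5 (28.6 ± 5.67), lys-6 (26.6 ± 5.84), lys-7 (5.67 ± 1.71) and lys-3 (4.59 ± 1.63). The libraries of lys-5 and lys-6 overlapped, as did those of lys-7 and lys-3, and all other neighbours in this order were apart. In mutants it was lys-1 (288 ± 15.2 CPM per kb), lys-4 (114 ± 13.6), lys-8 (44.3 ± 6.61), lys-2 (25.1 ± 2.85), lys-3 (4.46 ± 1.1), lys-7 (3.25 ± 0.35), lys-6 (3.01 ± 0.389) and lys-5 (2.26 ± 0.41; SD, n = 4 for all). Here lys-3, lys-7 and lys-6 all overlapped with each other. lys-1 and lys-4 thus changed places at the top, as did lys-2 and lys-8 below them, and lys-5 moved from above lys-3 and lys-7 to below them.

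Whether these changes were unequal was tested with the ratio of each gene to lys-1 in the same library, which no single scaling factor per library can change. Quantile normalization, which shifts genes by their level, can change it. With 4 libraries against 4, an exact 2-sided permutation test over 70 relabellings can give no p-value under 0.0286. Of the 7 ratios, 6 reached this value (0.0333 after Benjamini-Hochberg adjustment over the 7). How many of all genes would reach it against lys-1 was not computed. Between the strains, 41.2% of all genes were called lower and 42.5% higher, so this count need not be particular to the lys genes. The change of the log2 ratio to lys-1, mutants minus wild type, was -2.53 for lys-4, -2.38 for lys-5, -1.89 for lys-2, -1.85 for lys-6, -0.54 for lys-8 and 1.25 for lys-3, and for each of these 6 the strains did not overlap. The ratio of lys-3 lost its call (adjusted p = 0.0667, exact permutation test) without wild-type replicate 2 or without mutant replicate 2, 3 or 4, with values of 1.10, 1.25, 1.07 and 1.28. For lys-7 the ratio was 0.51 higher in mutants and did not pass (exact permutation test, p = 0.0857). With quantile normalization, added after the values were seen, the signs of lys-3 and lys-7 turned, to -0.39 (adjusted p = 0.229, exact permutation test) and -1.23 (adjusted p = 0.0333), while lys-8 moved to -1.13, lys-5 to -4.04 and lys-6 to -3.37. The direction of these ratios for lys-3 and lys-7 thus depended on the normalization.

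Replicates of the same strain also differed from each other. Over the 8 libraries, deviations of lys-2 from the strain means went with those of lys-1 (Pearson r = 0.83), not with those of lys-4 (-0.08). In pals-17(*) replicate 3 the levels of lys-1, lys-2 and lys-8 were the lowest of the 4 mutant libraries, whereas those of lys-3, lys-4, lys-5 and lys-6 were the highest. The span from the lowest to the highest mutant library was 1.13 times for lys-1, 1.3 for lys-2, 1.44 for lys-8, 1.31 for lys-4, 1.33 for lys-6, 1.52 for lys-5 and 1.79 for lys-3. In the wild type, replicates 3 and 4 held the highest level of every lys gene, yet replicate 4 held the lowest level of lys-7. Wild-type replicate 4 also had the lowest mean log2 value of the 10 oocyte markers, at 0.48, where the other wild-type libraries had 2.13 to 3.15. The part of stage in this spread was not tested.

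Among the lysozymes of the invertebrate type, 2 of the 6 annotated ilys genes were in the table and both were lower in mutants. ilys-5 (WBGene00017691, chromosome X) had 1018, 1012, 1224 and 1387 CPM in wild-type replicates 1 to 4, a level per kb (904 ± 141, SD, n = 4) between those of lys-4 and lys-1. In mutants only 9.82, 14.8, 12.4 and 9.22 CPM were left. Its log2 difference of -6.66 (SE 0.159, adjusted p = 7.1e-10) is beyond that of any lys gene analysed here. ilys-4 (WBGene00016958, chromosome IV) moved little, from 11.2 ± 1.12 to 8.33 ± 0.54 CPM (SD, n = 4 each, log2 difference -0.43, adjusted p = 0.00299). With library totals the value of ilys-4 was 0.17 (adjusted p = 0.157).

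The spp genes, which encode saposin-like proteins with pore-forming antimicrobial members such as spp-1 and spp-5, moved in both directions. Of the 16 with a row, 7 were lower, 6 were higher and 3 did not pass the test, shares near those over all genes (41.2% lower, 42.5% higher), with a median log2 difference of -0.24. The most abundant, spp-14, fell from 1307 ± 138 to 776 ± 67 CPM (SD, n = 4 each; -0.75). spp-13 was the lowest at -2.81. spp-21 was the highest, with 2 reads in the wild type (4 libraries together) against 1137 in the mutant, scaled to a ratio of 360.2 (exact 95% counting interval 99.5 to 2978, which covers counting error only).

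A list of 22 regulators held genes of the DAF-16, PMK-1 and DBL-1 pathways, gut GATA factors and others. Of these 22 genes, 16 were lower and 2 were higher, beside 41.2% and 42.5% of all genes. Their median log2 difference was -0.46. With library totals 8 were lower and 11 higher, beside 3390 and 8742 of all 14541 genes. daf-16, the FOXO transcription factor of the insulin pathway, had a value of -1.05, pmk-1, the p38 kinase, of -1.02, and sma-6, the type I receptor for DBL-1, of -1.64. Other listed genes of the DBL-1 pathway were sma-2 (-1.36), sma-3 (-0.33), sma-4 (-0.32) and daf-4 (0.07, adjusted p = 0.35). elt-2, the main GATA factor of the gut, had -0.97, and elt-7, another gut GATA factor, had -1.84, the lowest of the list. atf-7, a transcription factor under PMK-1 and the most abundant of these genes, had -0.21. The ligand gene dbl-1 had 0.03 (adjusted p = 0.845) and daf-2, the insulin receptor, -0.09 (adjusted p = 0.478). zip-1, a transcription factor of the IPR, and age-1, a PI3 kinase, were higher by 0.51 and 0.52.

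Markers of the intestine moved with the lys genes. Of 16 intestine markers 15 were lower in mutants and none was higher, beside 41.2% and 42.5% of all genes. With library totals 14 were lower and 1 higher, beside 3390 and 8742 of all 14541 genes. With quantile normalization 13 were lower and 1 higher, beside 6611 and 5687 of all genes. The median log2 difference of the 16 markers was -1.89. Their summed level was 28244.5 to 31811 CPM in the wild type against 7366 to 8912 CPM in mutants. The gut esterase ges-1 fell from 135 ± 5.53 to 4.76 ± 0.724 CPM (-4.83), the protease asp-1 from 12056 ± 880 to 3004 ± 329 CPM (-2.01; SD, n = 4 each), and gem-1 was not past the test (-0.16). In RNA of whole animals, a smaller share of gut RNA in the total and lower expression within gut cells cannot be told apart. Set against the mean log2 value of these 16 markers in the same library, lys-4, lys-5, lys-2 and lys-6 were still lower in mutants, by -1.82, -1.67, -1.17 and -1.14, and the strains did not overlap. On the same scale lys-1 (0.71), lys-7 (1.22) and lys-3 (1.96) were higher without overlap, and lys-8 (0.17) overlapped. With quantile normalization lys-3 (0.74), lys-7 (-0.10) and lys-8 (-0.0033) overlapped, and the other 5 kept their directions without overlap. This comparison was added after the values were seen and has no test.

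Markers of stage (oocyte, sperm and molting cuticle) moved as strongly. The counts below stand beside 41.2% of all genes lower and 42.5% higher. With library totals 3390 of all 14541 genes were lower and 8742 higher, and with quantile normalization 6611 and 5687. All 10 oocyte markers were higher (median 6.21, summed level 15.2 to 109 CPM in the wild type against 2569 to 3482 CPM in mutants), among them the eggshell gene cpg-2 (6.21), the RNA-binding gene puf-5 (6.65) and the chitin synthase gene chs-1 (4.79). So were all 7 sperm markers (median 3.27), from spe-38 (2.26) to the phosphatase genes gsp-3 (3.85) and gsp-4 (4.03). Of the 10 genes of the molting cuticle 9 were lower (median -2.56), among them the collagen genes bli-1 (-3.03) and sqt-3 (-2.68), and dpy-17 did not pass the test (0.53). The other lists were of tissues. Their median log2 differences were 1.45 for pharynx, -0.58 for body wall muscle, 1.39 for coelomocytes and -0.31 for neurons. Of the 6 pharynx markers with a row, 5 were higher, with the myosin gene myo-1 (16.2 against 45.5 CPM) and phat-3 at 3.86, and pha-4 was lower (-1.04). Their higher count fell to 2 without mutant replicate 1 or 2 or wild-type replicate 3 or 4. Of 8 body wall muscle genes 7 were lower (median -0.58, from -0.84 for unc-54 to -0.19 for lev-11), but 0 were lower and 1 was higher with library totals, and 0 were lower and 4 higher with quantile normalization. All 3 coelomocyte markers were higher (unc-122 0.93, cup-4 1.39, lgc-26 1.66). Of 8 neuron markers 5 were lower and 1 higher (unc-13 -1.29, egl-21 -0.80, unc-119 0.25), against 2 lower and 6 higher with library totals; without any of mutant replicates 2, 3 and 4 or wild-type replicates 1, 3 and 4, 0 were higher. The part of cell numbers and of stage in the differences of the lys genes was not tested.

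**Figure D5:**
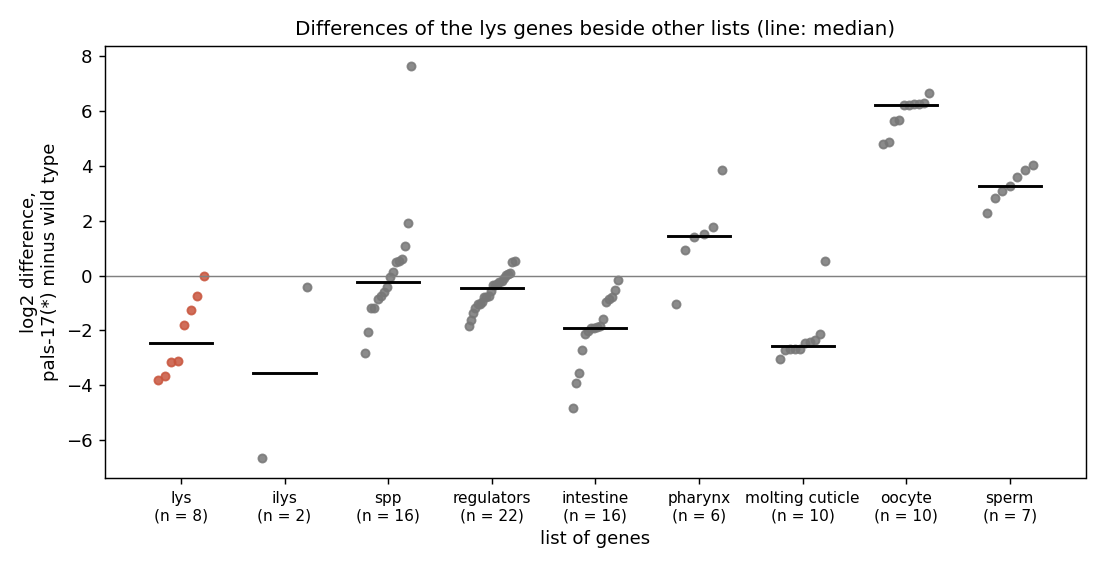
Log2 difference (pals-17(*) minus wild type) of each gene of the lys list (red) and of other lists (grey), with the median as a line. The lys genes have a median of -2.46, beside -1.89 for the intestine markers and -2.56 for the molting cuticle genes, and oocyte markers lie far above (6.21).

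Few genes next to the lys genes were measured. Right of the chromosome IV cluster, F58B3.4, 801 bp from lys-6, was higher in mutants (log2 difference 0.41, adjusted p = 0.000114). Right of the chromosome V cluster, B0024.3, 4015 bp from lys-3, was lower (-1.11, adjusted p = 7.34e-05). cdc-14, a cell-cycle phosphatase gene 1386 bp from lys-8, was higher by 0.35 (adjusted p = 0.000528). The genes nearest to lys-7, srbc-30 and srbc-33, had no row in the table, nor had Y22F5A.11 left of lys-1, dsl-5 left of lys-4 and T25E4.2 left of lys-8.

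The genes whose deviations from the strain means were most like those of lys-1 over the 8 libraries were T05C3.6 (Pearson r = 0.977), ugt-23 (0.974) and C46G7.1 (0.97), all lower in mutants, with log2 differences of -2.38, -2.97 and -2.3. For lys-4 they were homt-1 (0.99), W04D2.4 (0.986) and mlst-8 (0.985), with log2 differences of -0.15, 1.27 and -0.08. These values describe 8 libraries that share their depth and scaling, and among 12194 genes compared 271 had an r above 0.9 with lys-4 and 55 with lys-1.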

How the data were processed

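Paired-end reads of 8 libraries (TruSeq Stranded mRNA kit) were mapped by the authors to the WS235 genome with Rsubread and counted with featureCounts. Genes under 1 CPM were filtered out, and the counts were analyzed with limma-voom in Galaxy. Annotation, strand setting and scaling method are not given in the sources used here. The deposited values are log2 CPM, with 0.5 added to the reads and a scaled library size as the base, which was 0.793 to 0.822 times the recovered reads in wild-type and 1.2 to 1.26 times in mutant libraries. Reads were recovered from the steps between low values (100% within 0.01 of a whole number). The entry without a gene (0.00417% of reads) was left out. CPM and numbers of reads were computed from these recovered reads.

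The log2 values were compared between strains in limma 3.58.1 under R 4.3.3 (equal weights, intensity trend, 2-sided, Benjamini-Hochberg over 14541 genes), calling adjusted p-values under 0.05. Ratios of genes were tested by exact permutation. Coordinates and exon lengths are from Ensembl release 115 (WBcel235). No reference sequence was used. The procedure was tested on simulated data. Few genes changed in them and library sizes were given, so they did not test the scaling between strains.

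Members and lists were chosen with earlier results of these data known. Named genes were all listed lys genes and all ilys genes in the table. Of other lists they were the gene with the highest level and those with the lowest and highest difference. To these, spp-1, spp-5, elt-2, daf-16, pmk-1, sma-2, sma-3, sma-4, sma-6, daf-4, dbl-1, daf-2 and zip-1 were added after their values were seen. Also named were the nearest protein-coding genes on each side, and the 3 genes most like lys-1 and lys-4. Intervals on reads cover counting error only. Replicates are experimental replicates per the labels, and whether they were separate cultures is not given.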

Additional observations from a re-analysis of the deposited data

How the results depend on the processing

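With a log2 difference beyond 2 as a further threshold, 4 lys genes were lower in place of 7. The count was 6 with library totals, 8 with quantile normalization and 7 to 7 with single libraries left out, and 0 were higher under every alternative. Of 144 values of single lys genes under 18 alternatives (3 scalings, 2 variance models, voom weights, 0.1 or 1 CPM added, a filter on low values, the replicate block and 8 libraries left out), 142 kept their side of the threshold and, where called, their direction. lys-7 with library totals kept its direction and lost its call, and lys-3 with quantile normalization gained a call, with values given above. With quantile normalization the ratios to lys-1 reversed for lys-3 (-0.39) and lys-7 (-1.23). The value of ilys-4 turned to 0.17 (adjusted p = 0.157) with library totals. These totals also moved 1 of 2 ilys genes out of the lower count. The ratio of lys-3 to lys-1 missed the threshold (adjusted p = 0.0667) without wild-type replicate 2 or pals-17(*) replicates 2, 3 or 4, while that of lys-7 passed with 1 CPM added (0.66, adjusted p = 0.0286). With the replicate block 7 lys genes were lower, and no call on a lys gene changed. Over all genes, same-numbered libraries deviated together with r of -0.0167 to 0.0731, within the range for unlike numbers (-0.162 to 0.221). Pairing was thus not seen over all genes, which does not settle it for single genes. With the replicate block the SE of lys-4 went from 0.115 to 0.0476, and that of lys-8 from 0.125 to 0.146. lys-3, lys-5, lys-6 and lys-7 rest on 33 to 360 reads per library. Of the pharynx markers 2 or 3 in place of 5 were higher under 7 alternatives.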
